A study of Mus musculus with 6 samples.

Results

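Amino acid and neurotransmitter transporters are membrane proteins that carry amino acids, their derivatives and transmitter amines across cell membranes. The genes described here were chosen by symbol, as the members of the Slc1a, Slc3a, Slc6a, Slc7a, Slc36a, Slc38a and Slc43a families that have a probe set naming a single gene, with 1 Slc38a gene left out. The rule gave 57 genes of the 18193 measured, covered by 116 probe sets, and it uses no measured difference. Each gene is represented by its probe set with the highest mean over all arrays.

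RNA came from prepubertal mouse testes whose cells were separated by magnetic beads for Thy1, a surface glycoprotein. The Thy1-positive fraction has 3 arrays (P1, P2 and P3) and the Thy1-negative fraction has 3 (N1, N2 and N3), from independent donor preparations. Per the series' description, transplantation found more spermatogonial stem cells, the germline cells that renew themselves and found spermatogenesis, in the Thy1-positive fraction. Strain, genotype and age in days are not given in the sources used here. Values are log2(intensity + 1) of 1 probe set on 1 array, and differences are Thy1-positive minus Thy1-negative on that scale. Each fraction is a mixture of cells, so fewer cells of a type and less RNA per cell cannot be told apart. Intensity cannot be set against that of another probe set, and the number of arrays limits the precision.

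The fractions differed in their cell markers. Thy1 measured 6.05, 6.52 and 6.05 on P1, P2 and P3 against 2.35, 2.35 and 2.74 on N1, N2 and N3. Of the marker lists, 11 of 12 genes of undifferentiated spermatogonia, 4 of 8 germ cell genes, 13 of 13 macrophage genes and 3 of 7 T lymphocyte genes were higher in Thy1-positive cells, while 12 of 13 Sertoli cell, 3 of 5 Leydig cell and 4 of 6 peritubular myoid cell genes were lower. Of the remaining lists, 1 of 7 endothelial genes was higher and 1 lower, and 2 of 4 erythroid genes and 1 of 6 genes of interstitial mesenchyme were lower. Among all genes 18.5% were called higher and 14.4% lower. The lists were chosen with earlier results of these data known, so their counts are a description and not a test. With 1 array left out, 0 to 8 germ cell genes and 8 to 12 of undifferentiated spermatogonia were called higher. Lower were 6 to 12 Sertoli cell, 0 to 3 Leydig cell and 4 peritubular myoid cell genes. Macrophage genes called higher stayed at 13, and T lymphocyte genes numbered 3 to 4. With P3 and N3 both left out, 0 germ cell, Sertoli cell, Leydig cell and peritubular myoid cell genes were called. Called higher were then 2 genes of undifferentiated spermatogonia, 8 macrophage genes and 1 T lymphocyte gene. The Sertoli list mean was 6.40, 7.83 and 6.48 on P1, P2 and P3 against 10.80, 10.36 and 10.73 on N1, N2 and N3, so P2 held more Sertoli signal than P1 and P3. The germ cell list mean was 11.70, 11.63 and 11.70 on P1, P2 and P3 against 9.13, 10.76 and 9.64 on N1, N2 and N3, so N2 held more germ cell signal than N1 and N3. The macrophage list mean was 9.91, 10.27 and 10.17 on P1, P2 and P3 against 3.55, 3.42 and 3.44 on N1, N2 and N3, with no such odd array. On the first principal component of all probe sets N2 was at -62.0 and the Thy1-positive arrays at 81.8 to 107. N1 and N3 were farther from the Thy1-positive arrays, at -119 and -111.

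As background, cells take up essential amino acids through exchangers that trade one amino acid for another, and fill the exchangeable pool through carriers coupled to sodium or protons. Several Slc7a carriers are light chains that reach the membrane only when bound to a heavy chain of the Slc3a family. Carriers of the Slc1a and Slc6a families are best known from nerve and glia, where they clear glutamate, GABA, glycine and monoamines. In the seminiferous tubule, Sertoli cells surround and nourish the germ cells.

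Of the 57 genes, 9 were called lower and 5 called higher in Thy1-positive cells, where called means an adjusted p below 0.05 (limma, n = 3 arrays per fraction, Benjamini-Hochberg over all 18193 genes). The lower genes were the glutamate carrier Slc1a6, the glutamine carriers Slc38a5 and Slc38a2, the creatine carrier Slc6a8, the broad carrier Slc6a14, the exchanger Slc7a5 and the cationic amino acid group Slc7a1, Slc7a2 and Slc7a4. The higher genes were the light chains Slc7a9 and Slc7a7, the facilitators Slc43a2 and Slc43a1, and Slc38a6. The lower genes are 15.8% of the members and the higher ones 8.77%, against 14.4% of all genes called lower and 18.5% called higher. In either direction 24.6% of the members were called, against 33.0% of all genes. The median difference was 0.003 over the members and 0.01 over all genes, and the median absolute difference was 0.13 over the members and 0.32 over all genes. These medians include genes with little signal in both fractions, whose numbers are given below.

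The series' description singles out genes at least 10-fold higher in the Thy1-positive fraction. At that size in either direction Slc1a6 and Slc38a5 were lower and no member was higher, the highest difference being 2.35, against 1.10% of all genes lower and 0.715% higher. All 3 arrays of 1 fraction lay beyond all 3 of the other in 11 higher and 10 lower members of the 57. Among all genes the shares were 31.6% and 19.8%. Of the 11, Slc6a2, Slc6a17, Slc6a19 and Slc7a3 were at low signal in both fractions, as defined below.

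**Figure D1:**
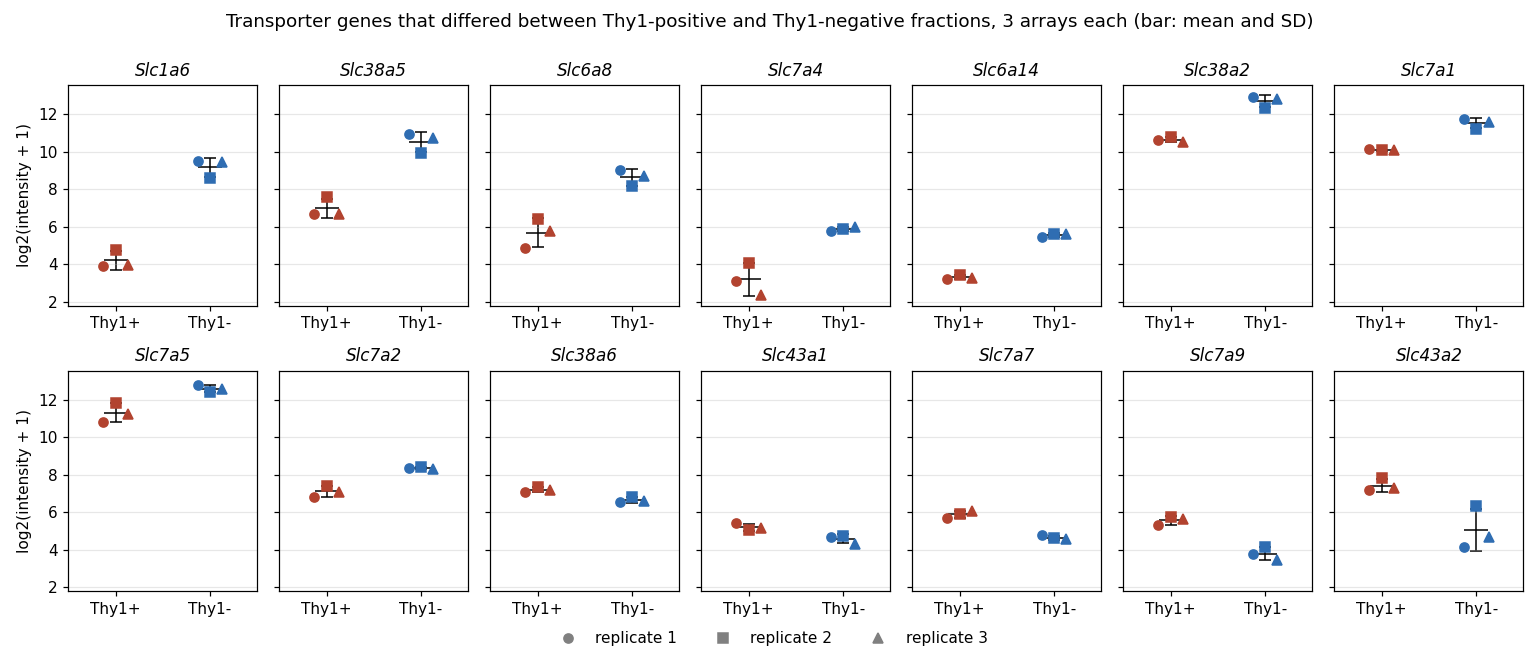
Values of the 14 transporter genes called at an adjusted p below 0.05, as log2(intensity + 1), on the 3 Thy1-positive and 3 Thy1-negative arrays. Each symbol is 1 array, bars are the mean and SD, and the fractions are separate for each of the 14 genes, with the widest gap in Slc1a6.

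Many members had little signal in either fraction. Low signal here means a fraction mean below the mean of its array medians, which lay between 4.06 and 4.21. Of the 57 genes, 29 were at low signal in both fractions, with array values between 2.18 and 4.62 and differences between -0.13 and 0.48. By limma 0 of these 29 were called, and 0 had an unadjusted p below 0.05. Of all 18193 genes, 11657 were above that level in at least 1 fraction. Of the other 28 members 14 were called, or 50%, against 50.1% of these 11657 genes. Slc6a14, Slc7a4 and Slc7a9 were above it in 1 fraction alone and entered the 28 through it.

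With each array centred on its median instead, 33 members were called higher and 9 lower. That centring moved the median difference of all genes to 0.13. Of the 28 members called only then, 25 were at low signal in both fractions and had differences between 0.0003 and 0.16 before centring.

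The glutamate and aspartate carriers were 5 genes, of which 1 was lower and 4 were at low signal in both fractions. Slc1a6 encodes EAAT4, a sodium-coupled glutamate carrier known from Purkinje cells of the cerebellum. It measured 3.92, 4.79 and 3.95 on P1, P2 and P3 against 9.49, 8.60 and 9.43 on N1, N2 and N3. The fractions did not overlap, and P1 and P3 were below the medians of their arrays. Slc1a6 was 31.0-fold lower (-4.95, SE 0.38, limma adjusted p = 0.00272), or 29.0-fold lower with values below the array median raised to it. The glutamate carriers Slc1a1, Slc1a2, Slc1a3 and Slc1a7 had 1 array value above 4, which was Slc1a3 on P2 (4.62).

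The neutral amino acid exchangers of the same family, Slc1a4 and Slc1a5, trade serine, alanine, cysteine or glutamine, and were not called. Slc1a5 measured 6.78, 7.60 and 7.06 on P1, P2 and P3 against 7.26, 7.19 and 7.22 on N1, N2 and N3, with a difference of -0.07 and a 95% interval from -0.66 to 0.51. Its Thy1-positive arrays lay on both sides of the Thy1-negative ones. For Slc1a4 the difference was -0.24, with a 95% interval from -0.68 to 0.20.

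The sodium-coupled neutral amino acid carriers of the Slc38 family numbered 8, of which 2 were lower, 1 higher and 5 not called. Slc38a5, a glutamine, asparagine and histidine carrier that exchanges protons, measured 6.68, 7.58 and 6.69 on P1, P2 and P3 against 10.94, 9.93 and 10.74 on N1, N2 and N3. It was 11.7-fold lower (-3.55, SE 0.40, limma adjusted p = 0.00591). The fractions were separate, with P2 the highest Thy1-positive and N2 the lowest Thy1-negative array.

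Slc38a2 encodes SNAT2, a carrier of small neutral amino acids that cells can induce when amino acids are scarce. It measured 10.63, 10.76 and 10.49 on P1, P2 and P3 against 12.93, 12.33 and 12.82 on N1, N2 and N3 and was 4.18-fold lower (-2.06, SE 0.19, limma adjusted p = 0.00398). Another probe set of Slc38a2 was lower too (-1.55, limma adjusted p = 0.0121 over all probe sets). Slc38a6, a less studied member, went the other way, without overlap of the fractions. It measured 7.06, 7.35 and 7.20 on P1, P2 and P3 against 6.56, 6.84 and 6.60 on N1, N2 and N3 and was 1.45-fold higher (0.53, SE 0.11, limma adjusted p = 0.0258).

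Slc38a9, the lysosomal carrier through which arginine is reported to mTORC1, did not pass the test. It measured 8.59, 8.98 and 8.69 on P1, P2 and P3 against 7.84, 8.40 and 8.25 on N1, N2 and N3, without overlap (0.59, SE 0.19, limma adjusted p = 0.0763). Among its 7 probe sets 2 others were called higher over all probe sets, by 0.73 and 0.09. Slc38a1, a glutamine carrier, measured 7.84, 7.08 and 7.80 on P1, P2 and P3 against 8.59, 6.56 and 8.12 on N1, N2 and N3. Its Thy1-negative arrays were spread more widely than the fractions were apart, and the 95% interval ran from -1.80 to 1.42. Slc38a7 (0.10) and the kept probe set of Slc38a10 (-0.18) were not called. Another Slc38a10 probe set was called in the opposite direction (0.14, limma adjusted p = 0.0336 over all probe sets), and a further one differed by 1.67 without passing. Slc38a3, a glutamine carrier of liver and kidney, was at low signal in both fractions.

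The cationic amino acid carriers numbered 5, of which 3 were lower and 2, Slc7a3 and Slc7a14, were at low signal in both fractions. Slc7a1, the widely expressed carrier of arginine, lysine and ornithine, measured 10.12, 10.07 and 10.07 on P1, P2 and P3 against 11.72, 11.21 and 11.60 on N1, N2 and N3. It was 2.68-fold lower (-1.42, SE 0.14, limma adjusted p = 0.00502), and the Thy1-positive arrays were nearly equal. A further probe set of Slc7a1 gave a smaller difference that did not pass (-0.31, limma adjusted p = 0.157 over all probe sets).

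Slc7a2, an arginine carrier known from liver and activated macrophages, measured 6.82, 7.42 and 7.08 on P1, P2 and P3 against 8.36, 8.41 and 8.33 on N1, N2 and N3 and was 2.39-fold lower (-1.26, SE 0.16, limma adjusted p = 0.00818). Its 3 other probe sets differed by -0.20, 0.15 and -0.14 and were not called, so the call rests on 1 probe set. Slc7a4, a relative whose substrate is not settled, measured 3.12, 4.09 and 2.39 on P1, P2 and P3 against 5.79, 5.88 and 5.99 on N1, N2 and N3. Its Thy1-positive mean counts as low signal, and it was at least 3.50-fold lower (-2.69, SE 0.46, limma adjusted p = 0.0151). Both of its other probe sets were called lower over all probe sets (-3.21, and -0.82 for a probe set at low signal in both fractions).

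Of the 2 heavy chains neither was called, and of the 10 light chains 2 were higher and 1 lower. Slc3a2, the heavy chain CD98 that partners most of these light chains, measured 11.43, 11.44 and 11.51 on P1, P2 and P3 against 11.79, 11.48 and 11.66 on N1, N2 and N3 and was not called (-0.19, SE 0.09, limma adjusted p = 0.174). Its light chain Slc7a5, known as LAT1 and a carrier of leucine and other large neutral amino acids, measured 10.82, 11.83 and 11.24 on P1, P2 and P3 against 12.79, 12.42 and 12.54 on N1, N2 and N3. The fractions did not overlap, with P2 nearest to the Thy1-negative arrays. Slc7a5 was 2.44-fold lower (-1.29, SE 0.29, limma adjusted p = 0.0301).

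Slc7a7, the light chain that exports cationic amino acids in exchange for neutral ones and is mutated in human lysinuric protein intolerance, measured 5.71, 5.89 and 6.07 on P1, P2 and P3 against 4.77, 4.61 and 4.57 on N1, N2 and N3. It was 2.36-fold higher (1.24, SE 0.11, limma adjusted p = 0.00405). Slc7a9, the cystine and cationic amino acid carrier mutated in human cystinuria, measured 5.30, 5.74 and 5.66 on P1, P2 and P3 against 3.78, 4.14 and 3.44 on N1, N2 and N3. It was at low signal in Thy1-negative cells and at least 2.59-fold higher (1.78, SE 0.22, limma adjusted p = 0.00761). Slc3a1, the heavy chain that Slc7a9 binds in the kidney, lay at 2.22 or 2.23 on every array.

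Slc7a6 and Slc7a8, further partners of Slc3a2, were not called. The kept probe set of Slc7a6 differed by 0.37, and its other probe set lay in the opposite direction (-0.45, limma adjusted p = 0.0484 over all probe sets). Slc7a8 measured 5.22, 6.91 and 6.16 on P1, P2 and P3 against 6.18, 6.05 and 6.24 on N1, N2 and N3, so its Thy1-positive arrays lay on both sides of the Thy1-negative ones. The cystine carrier Slc7a11 and the light chains Slc7a10, Slc7a12, Slc7a13 and Slc7a15 were at low signal in both fractions.

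Genes that respond to amino acid shortage can carry an element bound by ATF4, and several amino acid carriers are known targets. The letters TGATGNAA were searched on both strands in RefSeq promoter windows of the GRCm38.p6 build. Each window ran from 250 bases before to 50 after an annotated start of a gene. A gene can have several such starts, which need not lie at its outer end. Of the 57 genes, 40 had a window, and 4 of these (10.0%) held a match, against 4.51% of 27025 genes with a window. The stretches around the matches are shown for all 4 genes because these are the members with a match in a window. The stretches run 5′ to 3′ on the gene's strand, with the matches in capitals. They lie at chr14:54417918-54418105 (Slc7a7), chr3:50443633-50443699 (Slc7a11) and chr11:20332690-20332737 (Slc1a4), all on the minus strand, and at chr7:45282825-45282872 on the plus strand (Slc6a21).
Slc7a7: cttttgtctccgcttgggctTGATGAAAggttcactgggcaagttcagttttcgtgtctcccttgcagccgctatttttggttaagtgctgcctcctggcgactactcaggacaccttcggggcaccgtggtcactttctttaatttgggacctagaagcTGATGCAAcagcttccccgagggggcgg
Slc7a11: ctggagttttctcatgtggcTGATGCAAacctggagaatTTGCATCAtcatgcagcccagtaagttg
Slc1a4: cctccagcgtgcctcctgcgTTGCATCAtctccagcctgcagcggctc
Slc6a21: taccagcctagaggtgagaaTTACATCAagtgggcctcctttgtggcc

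In Slc7a7 the matches began at -141 and -1 from the start of the window shown and ran on the gene's strand. The match at -1 also lies at -243 from the start of another Slc7a7 window. In Slc7a11 the matches began at -66 and -47 on opposite strands. Slc7a7 was higher in Thy1-positive cells, Slc1a4 was not called, and Slc7a11 and Slc6a21 were at low signal in both fractions. Of the 10 called members with a window, 1 held a match. A match of these letters is a description and not a binding site.

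Most transmitter carriers of the Slc6 family gave little signal. The noradrenaline, dopamine and serotonin carriers Slc6a2, Slc6a3 and Slc6a4, the GABA and betaine carriers Slc6a11, Slc6a12 and Slc6a13, and the neuronal glycine carrier Slc6a5 were at low signal in both fractions. Slc6a9, the glial glycine carrier, measured 7.21, 7.78 and 7.46 on P1, P2 and P3 against 8.24, 8.03 and 7.72 on N1, N2 and N3. It did not pass (-0.52, SE 0.21, limma adjusted p = 0.132), and its arrays overlapped.

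Slc6a8 takes up creatine, whose phosphate form is an energy store. It measured 4.88, 6.40 and 5.79 on P1, P2 and P3 against 9.04, 8.17 and 8.73 on N1, N2 and N3, with P1 lowest and P2 highest among the Thy1-positive arrays. It was 7.75-fold lower (-2.95, SE 0.47, limma adjusted p = 0.0129), and its other probe set was lower as well (-1.91, limma adjusted p = 0.0237 over all probe sets). Slc6a6, the taurine carrier, measured 8.78, 9.72 and 9.18 on P1, P2 and P3 against 8.65, 8.18 and 8.53 on N1, N2 and N3. Its arrays did not overlap, but it did not pass (0.78, SE 0.28, limma adjusted p = 0.105), whereas 1 of its other probe sets was called higher (1.29, limma adjusted p = 0.0451 over all probe sets).

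Slc6a14, a carrier with a broad range of neutral and cationic substrates, measured 3.25, 3.43 and 3.26 on P1, P2 and P3 against 5.45, 5.61 and 5.63 on N1, N2 and N3. The arrays of each fraction lay close together. Its Thy1-positive mean counts as low signal too, and it was at least 2.81-fold lower (-2.25, SE 0.08, limma adjusted p = 0.000352). The 7 other genes grouped with it, including the proline carrier Slc6a7 and the intestinal and renal carriers Slc6a18 and Slc6a19, were at low signal in both fractions.

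The Slc43 facilitators, which let large neutral amino acids pass without ions, held 2 higher genes of 3. Slc43a2, known as LAT4, measured 7.16, 7.82 and 7.29 on P1, P2 and P3 against 4.18, 6.34 and 4.70 on N1, N2 and N3. The fractions did not overlap, but N2 was well above N1 and N3. It was 5.10-fold higher (2.35, SE 0.63, limma adjusted p = 0.0478), and a further probe set was higher too (1.35, limma adjusted p = 0.0101 over all probe sets). Slc43a1, known as LAT3, measured 5.41, 5.04 and 5.19 on P1, P2 and P3 against 4.71, 4.75 and 4.31 on N1, N2 and N3 and was 1.54-fold higher (0.62, SE 0.16, limma adjusted p = 0.0449). Slc43a3, which carries purine bases, was not called (0.23) and was lowest on N2.

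The proton-coupled carriers numbered 4. By limma 0 were called and 1, Slc36a1, had an unadjusted p below 0.05. Slc36a1, which exports small amino acids from lysosomes, measured 5.33, 5.48 and 5.51 on P1, P2 and P3 against 5.82, 5.61 and 5.89 on N1, N2 and N3, without overlap (-0.34, SE 0.09, limma adjusted p = 0.0526). Slc36a4 lay between 8.64 and 8.76 over the 6 arrays, with a 95% interval of the difference from -0.12 to 0.08. Slc36a2 and Slc36a3 were at low signal in both fractions.

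**Figure D2:**
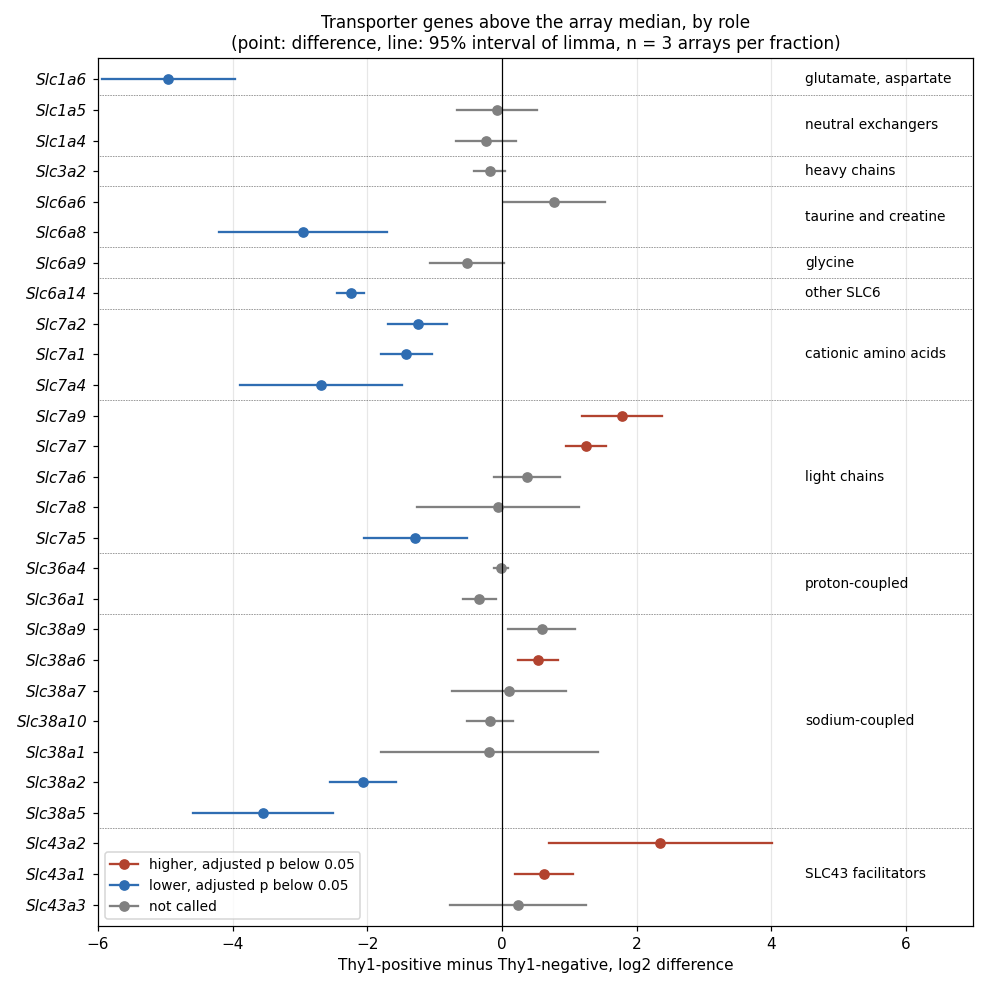
Thy1-positive minus Thy1-negative differences on the log2 scale for the transporter genes above low signal in at least 1 fraction, grouped by role, with 95% intervals from limma (3 arrays per fraction). The kept probe sets of the 3 cationic carriers shown lie below 0, from -1.26 to -2.69. Of these, Slc7a4 entered through the Thy1-negative fraction alone, and other probe sets of Slc7a1 and Slc7a2 were not called. The light chains and the sodium-coupled carriers lie on both sides.

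The order of single arrays was set beside the markers. Among the 9 lower genes, P2 was the highest Thy1-positive array in 8 and N2 the lowest Thy1-negative array in 6, and among all 2628 genes called lower the shares were 68.3% and 78.4%. Slc1a6, Slc6a8, Slc7a5, Slc38a2 and Slc38a5 showed both, or 5 of 9 genes against 55.0% of all genes called lower. The list means of Sertoli cells, interstitial mesenchyme, endothelium and macrophages had that order too. For macrophages the margins were small, with 10.27 on P2 against 10.17 on P3 and 3.42 on N2 against 3.44 on N3. The macrophage list differed between the fractions in the opposite direction to the 9 lower genes. Among the 5 higher genes, N2 was the highest Thy1-negative array in 4, with Slc7a7 as the exception, against 71.2% of all 3368 genes called higher. P2 was the lowest Thy1-positive array in 1 of the 5, against 54.1%. The list means of germ cells, undifferentiated spermatogonia, peritubular myoid cells and T lymphocytes were also highest on N2 among the Thy1-negative arrays. These orders are thus common among all called genes. The part of these cells in the transporter differences was not tested.

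**Figure D3:**
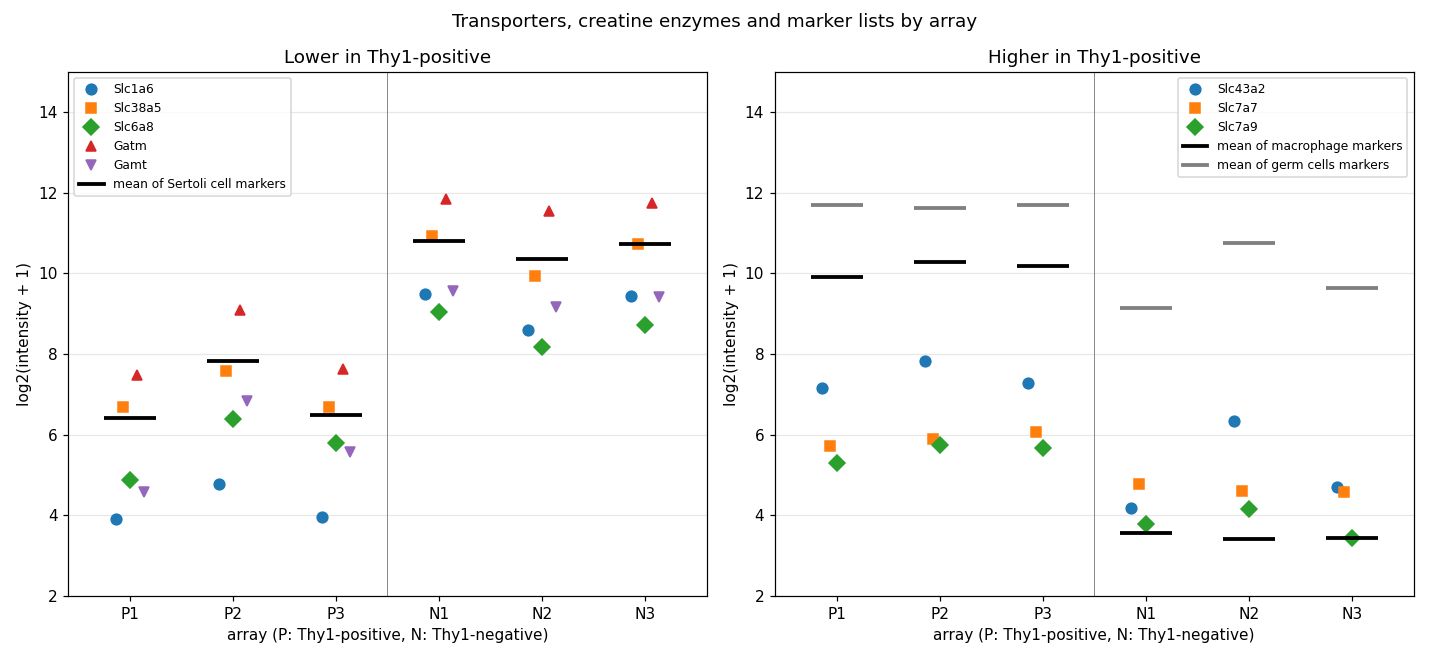
Values on the 6 arrays as log2(intensity + 1), with list means (horizontal bars) of the Sertoli, macrophage and germ cell markers. Symbols are Slc1a6, Slc38a5, Slc6a8, Slc43a2, Slc7a7 and Slc7a9, a selection from the 14 called transporter genes, and the creatine enzyme genes Gatm and Gamt. Among all 9 lower transporter genes, 5 had P2 highest and N2 lowest within their fractions, against 55.0% of all genes called lower. The Sertoli mean is 7.83 on P2, above P1 and P3, and Slc43a2 is at 6.34 on N2, where the germ cell mean is 10.76.

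Genes that make, use or break down the substrates of these carriers were read beside them. The counts of the lists below stand against 18.5% of all genes called higher and 14.4% called lower. Among all genes above low signal in at least 1 fraction, 50.1% were called in either direction. Of 15 genes that make, use or break down transmitters, taurine or creatine, 6 were lower and 1 higher, with a median difference of -0.0002. Gatm and Gamt, the enzymes that make creatine, were lower as the creatine carrier Slc6a8 was. Gatm measured 7.47, 9.09 and 7.64 on P1, P2 and P3 against 11.84, 11.55 and 11.75 on N1, N2 and N3 (-3.64, SE 0.48, limma adjusted p = 0.00844). Gamt measured 4.59, 6.83 and 5.57 on P1, P2 and P3 against 9.56, 9.16 and 9.40 on N1, N2 and N3 (-3.71, SE 0.61, limma adjusted p = 0.0138). In both genes, as in Slc6a8, P2 was the highest Thy1-positive array. Cdo1, the cysteine dioxygenase on the path to taurine, was lower as well (-3.80, SE 0.32, limma adjusted p = 0.00352). Tph1, which makes serotonin outside the brain, was at least 2.38-fold higher (2.10, SE 0.14, limma adjusted p = 0.00213), its Thy1-negative mean being at low signal, and the serotonin carrier Slc6a4 was at low signal in both fractions.

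Of 14 genes of the response to amino acid shortage, 3 were higher and 2 lower, with a median difference of -0.07. Asns, which makes asparagine and is a known ATF4 target, measured 8.82, 8.95 and 8.77 on P1, P2 and P3 against 10.83, 10.60 and 10.82 on N1, N2 and N3 (-1.91, SE 0.09, limma adjusted p = 0.000717). Stc2 was also lower (-1.21), whereas the pseudokinase gene Trib3, the lipoprotein receptor gene Vldlr and the leucine sensor gene Sesn2 were higher, by 0.99, 0.88 and 0.83. The list thus held called genes in both directions.

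Of 13 genes of serine, glycine, proline and glutamate metabolism, 6 were higher and 1 lower, with a median of 0.39. The glycine cleavage gene Gldc, at low signal in the Thy1-negative fraction, was at least 6.51-fold higher (2.91, SE 0.58, limma adjusted p = 0.0217). The serine hydroxymethyltransferase genes Shmt2 (1.38) and Shmt1 (1.18) were higher, and the aspartate aminotransferase gene Got1 was lower (-1.32, SE 0.11, limma adjusted p = 0.00328). Of 11 genes of glutathione synthesis and cystine use, 4 were higher and 7 not called, with a median of 0.61. They included Ggt7 (1.96), the glutathione reductase gene Gsr (1.84) and Gclc (1.35), the catalytic subunit of the first step, while the cystine carrier Slc7a11 was at low signal.

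Of 15 amino acid and peptide carriers outside the chosen families, 4 were higher and 3 lower, with a median of 0.31. The mitochondrial glutamate carriers Slc25a18 and Slc25a22 differed in direction. Slc25a18 measured 3.20, 4.29 and 3.19 on P1, P2 and P3 against 8.06, 8.02 and 8.01 on N1, N2 and N3 (-4.47, SE 0.34, limma adjusted p = 0.00274). Its Thy1-positive mean counts as low signal, so it was at least 14.7-fold lower. Slc25a22 was higher (0.97, SE 0.19, limma adjusted p = 0.0205). The aspartate and glutamate exchanger Slc25a13 was lower (-1.28), and the peptide carrier Slc15a2, at low signal in the Thy1-positive fraction, was at least 1.76-fold lower (-1.65). The lysosomal cystine exporter gene Ctns (0.60) and Slc15a3 (1.00) were higher, the last at low signal in both fractions.

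Of 19 genes by which mTORC1 senses amino acids, 6 were higher and 2 lower, with a median of 0.42. All 19 were above low signal in at least 1 fraction, and of all such genes 50.1% were called. The Rag GTPase genes Rragd and Rragc went in opposite directions. Rragd measured 10.56, 10.52 and 10.51 on P1, P2 and P3 against 8.80, 9.06 and 9.01 on N1, N2 and N3 (1.57, SE 0.08, limma adjusted p = 0.000919), and Rragc was lower (-0.83, SE 0.09, limma adjusted p = 0.00531), as was the Ragulator gene Lamtor5 (-0.63). Depdc5, part of the complex that restrains Rag GTPases, and Mtor itself were higher, by 1.54 and 1.21. Leaving out 1 array changed the counts of these lists. The higher genes then numbered 0 to 3 in the shortage response and 1 to 8 in serine and glycine metabolism. They numbered 2 to 6 in glutathione synthesis, 1 to 6 among the other carriers and 3 to 6 in mTORC1 sensing. The lower genes of the transmitter, taurine and creatine list numbered 4 to 6. With both arrays numbered 3 left out, limma called 0 genes of each of the 6 lists.

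The calls differ in how far they rest on single arrays. Slc1a6, Slc38a5, Slc38a2, Slc6a14, Slc7a1, Slc7a2, Slc7a7 and Slc7a9 were called in each of the 6 fits that left out 1 array. Slc6a8 did not pass without P3 (-3.01) or N3 (-2.91), and Slc7a4 did not pass without P1 (-2.65), N1 (-2.74) or N3 (-2.64). Slc7a5 passed only without P2 (-1.55), with differences from -1.37 to -1.05 in the other 5 fits. Slc43a2 passed only without N2 (2.98), with 1.90 to 2.48 otherwise. Slc38a6 passed without P1 (0.61) or N2 (0.62) and in none of the other 4 fits (0.46 to 0.53). Slc43a1 passed in none of the 6 (0.49 to 0.71).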

How the data were processed

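The deposited values are linear intensity per probe set on 6 Affymetrix mouse arrays. Per the labels, the authors quantified signals with Affymetrix software and scaled each array to a common target, while the submitters' processing notes name GCRMA. The sources used here do not settle which of these made the deposited table. From these values log2(intensity + 1) was taken without further normalization. Of 45101 probe sets, 64 controls were left out, and the probe set with the highest mean was kept for each of 18193 genes, using the 34945 probe sets with 1 gene symbol. Fractions were compared with limma 3.58.1 in R 4.3.3 (lmFit and eBayes, 2-sided, Benjamini-Hochberg over all genes), checked on simulated data. Called means an adjusted p below 0.05, and every called member is named with its 6 array values. Beyond the members, at most the 3 called genes with the largest change in each direction are named per list. All 57 members matched RefSeq by Entrez identifier. The series' description states no pairing of arrays by number, so numbers were not used as pairs. Deviations of arrays sharing a number from their fraction means correlated at -0.19, -0.17 and -0.007. These correlations cannot decide pairing, as a shared poor separation would shift both arrays in opposite directions. The members and lists were chosen with earlier results of these data known. 1 gene of the Slc38 family is not reported here. Other scalings, filters, probe set rules, weights and left-out arrays were tried as alternatives.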

Additional observations from a re-analysis of the deposited data

How the results depend on the processing

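Each alternative kept the direction of the 14 called members. The counts of 5 higher and 9 lower held, with the same genes, under centring on housekeeping genes, a pseudocount of 16, an intensity trend with robust variance, probe sets averaged per gene, and without probe sets ending in _x_at or _s_at. Centring on the array median gave 33 higher and array weights, whose estimation did not reach its tolerance, 14 higher and 15 lower, and adjustment over all probe sets gave 3 higher, without Slc43a1 and Slc43a2. Leaving out 1 array gave 2 to 4 higher and 6 to 10 lower. Without both arrays numbered 2, 5 were higher and 9 lower, with Slc7a6 called in place of Slc43a1. Without both arrays numbered 3, limma called 0 higher and 1 lower (Slc6a14), with 2 higher and 8 lower at an unadjusted p below 0.05, and 1.15% of all genes were called. That fit has fewer arrays, but so has the fit without both arrays numbered 2, in which 41% of all genes were called. With the replicate number as a block, 1 was higher and 2 lower (Slc38a6, Slc6a14 and Slc7a1), and 8.13% of all genes were called. In 0 of 6 arrays was the correlation best with the same number in the other fraction, which does not decide whether numbers mark pairs. Raising low values to the array median, or testing genes above it, added Slc38a9 and Slc6a6. Quantile normalization added Slc6a19, and a floor at the 25th percentile added Slc36a1. The cause of these changes was not tested. Signal near background limits the 29 members at low signal in both fractions.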
